A study of Mus musculus with 23 samples.

Results

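Lungs of adult Rarres1 knockout (KO) mice and of wild-type (WT) mice were compared at 10 months after birth, gene by gene, in bulk RNA. The comparison takes the 3 WT and the 3 KO columns of that age from the deposited read count table, 6 of the 23 libraries of the series, and all 24411 genes in it. Both groups are male mice of C57BL/6 background. The tissue is lung described as free of tumour, total RNA was sequenced, the animals lived behind a pathogen-free barrier, and neither group was treated. The KO mice lack Rarres1, and the labels name no other allele, no Cre and no transgene. The titles number the males within a group, and each library is read as 1 mouse. The labels give no hour of collection and no batch, so the part of either in the differences below, those of clock and chaperone genes included, was not tested. The other ages enter only where the 10-month effect is set against them: lungs at embryonic day 19.5 (E19.5), with 3 libraries per genotype, and non-tumour lungs at 18 months, with 3 WT and 5 KO libraries.

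Rarres1 encodes a membrane protein that is induced by retinoic acid and resembles latexin, an inhibitor of carboxypeptidases. Many of the genes described below belong to the circadian clock or the heat shock system. In the circadian clock, BMAL1 (the product of Arntl) pairs with CLOCK or NPAS2 and switches on genes through E-boxes in their promoters; the period, cryptochrome and REV-ERB proteins made from such genes then shut the activators down, and DBP, HLF and TEF carry the rhythm to output genes through D-boxes. In the heat shock system, HSF1 binds heat shock elements and switches on cytosolic chaperones, which fold and refold proteins; many of these chaperone genes also follow a daily rhythm in mouse tissues, as do the cold-inducible RNA-binding proteins, which run opposite to body temperature.

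The 6 libraries held between 26.8 and 32.0 times 1e6 counts and 17464 to 17606 genes with at least 1 count. Levels below are counts per 1e6 counts (CPM) after TMM scaling, given in the order WT 1, 2, 3 and KO 1, 2, 3 unless said otherwise. The largest axis of variation (54.1% of the variance in a principal component analysis) did not follow genotype. It put WT 1 (−20.7) and KO 2 (−16.4) at one end and WT 2 (17.8) and KO 1 (17.5) at the other, the same order as the level of 13 heart muscle genes. That level, a mean of log2(CPM + 1), was 6.29, 2.35 and 4.95 in WT and 2.5, 5.79 and 3.75 in KO. Adipocyte genes were also highest in WT 1 (4.06) and KO 2 (3.89), against 1.12 to 1.80 in the other libraries. The next axis (20.2%) separated the genotypes, with WT between −10.7 and −7.16 and KO between 4.60 and 15.8. Library WT 3 stood apart in another way. It held 64.4 CPM of Dlk1 and 33.5 CPM of H19, imprinted genes of fetal tissue, against at most 2.72 and 2.37 CPM in the other 5 libraries, and Meg3 at 36.9 CPM against at most 8.78. In the E19.5 lungs these 3 genes lay at 1044.5 CPM of total counts or more. These genes were chosen after their values were seen. Without WT 3 the log2 fold change was 3.60 for Dbp, −2.51 for Arntl, −1.77 for Hsph1 and 1.13 for Cirbp, all still called, and where a gene named by rule lost its call without WT 3 this is said beside it.

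Lung markers were in place in all 6 libraries: the mean level of the 10 type 2 cell genes lay at 9.84 to 10.3 on the log2(CPM + 1) scale, and Sftpc, the defining surfactant gene, held 11437, 13130.3 and 9903 CPM in WT and 14615, 10555 and 12700.4 CPM in KO. In bulk tissue, fewer cells of a type and less RNA per cell cannot be told apart.

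Rarres1, on mouse chromosome 3 (chr3:67478886-67515523, build GRCm38.p6), checked the genotype labels. WT 1, 2 and 3 held 47, 50 and 33 reads of it. KO 1, 2 and 3 held 0, 0 and 0 reads. The gene was thus detected in every WT and in no KO library, and WT was at least 43.1-fold higher when KO is set to a floor of 3 counts over the group (edgeR, adjusted p = 0.0026; floors and intervals cover counting error only). Of the 7 genes tested within 1 Mb of it, 0 were called by edgeR. An unadjusted p under 0.05, which 17.4% of all genes tested had, was found for 3. These were Schip1 (−0.29 ± 0.07), Mlf1 (−0.45 ± 0.12) and the related gene Lxn, for latexin, at 33.3 CPM in WT and 27.6 CPM in KO (−0.27 ± 0.10).

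Across all genes few changes were called, and most of those were small. By edgeR, 2670 genes tested (17.4%) had an unadjusted p under 0.05. A gene that was not called is not shown to be unchanged. Of 15324 genes tested, 233 (1.52%) were called at an adjusted p under 0.05 in edgeR's quasi-likelihood test: 88 (0.574%) were higher and 145 (0.946%) lower in KO. The median absolute log2 fold change of the called genes was 0.53, and 137 of them changed by less than 1.5-fold. Only 15 rose and 19 fell by at least 2-fold. All 233 had no overlap between the WT and KO libraries, which held for 3783 of all genes tested (24.7%). Lack of overlap is thus no further support for a called gene named below. All KO lay above all WT libraries for 12.2% of all genes tested, and all WT above all KO for 12.5%. These shares and the 1.52% called are the background for the counts of each list below. The median log2 fold change of all tested genes was close to 0, with 49.9% of them above 0. The count depended on single libraries. Leaving out WT 1 gave 134 calls (0.868%), leaving out WT 2 gave 109 (0.705%) and leaving out WT 3 gave 88 (0.568%). Leaving out KO 1 gave 66 calls (0.427%), KO 2 gave 205 (1.32%) and KO 3 gave 127 (0.821%). Leaving out WT 1 and KO 2 together gave 240 (1.56%), of which 155 were among the 233. DESeq2 called 586 genes (4.24%), and a fit over all 23 libraries 41 (0.252%).

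**Figure D1:**
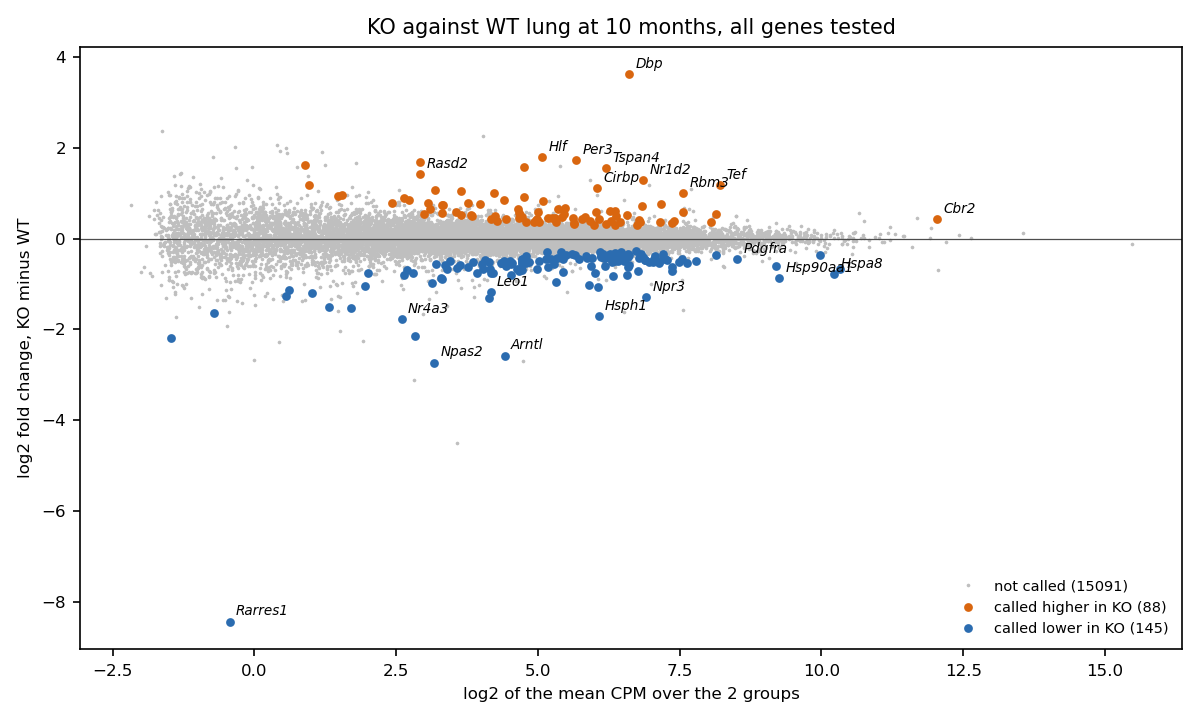
Log2 fold change (KO minus WT, vertical) of the 15324 genes tested at 10 months against their mean level (log2 of the mean CPM, horizontal), 3 libraries per genotype, with genes called at an adjusted p under 0.05 in colour. Most of the 233 called genes lie close to 0. Rarres1 itself, which had no reads in KO, lies far below 0. Apart from it, the few far from 0 are led by Dbp upward and by Npas2 and Arntl downward.

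Rarres1 itself apart, the largest changes were in circadian clock genes. Of the 6 activator genes listed, 3 fell and 0 rose. Of the 15 repressor genes, 4 rose and 0 fell, and all 3 genes of the output factors rose. The medians of these lists were −0.27, 0.96 and 1.79 on the log2 scale. Without WT 3 the called activators were 2 and the called repressors 3. The called repressors were 3 to 8 over the 6 fits that leave out 1 library (8 without KO 2, 6 without KO 3), 6 without WT 1 and KO 2 together, and 10 in DESeq2. All KO libraries lay above all WT libraries for 10 of the 15 repressors (12.2% of all genes tested did so) and for all 3 output factors.

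Promoters of some of these genes are shown because clock proteins are known to act on one another through such sites. A promoter is printed only where the site was found. The RefSeq promoters used (GRCm38.p6) run from 250 bases before to 50 bases after a gene's start. Both strands were searched. The E-box searched, CACGTG, reads the same on both strands. It occurs in 7.15% of all 32851 promoters, counted singly. Counted by gene, at any of its starts, it occurs in 11.1% of the 11542 tested genes that could be matched. It occurs in 13 of the 59 matched genes that rose (22%) and in 10 of the 114 that fell (8.77%). Of the 11 matched clock repressors 4 have it: Per1, Cry1, Bhlhe41 and Ciart. So do 0 of the 5 matched activators and 1 of the 3 output factors, Tef. Dbp and Hlf thus lack it in this window. Stretches of 4 promoters of genes that rose are printed 5′ to 3′ on the strand of the gene, with the E-box in capitals. Ciart (chr3:95882249-95882368, minus strand) is shown for its 3 copies; those of Bhlhe41 (chr6:145865511-145865630, minus strand), Tef (chr15:81802483-81802602, plus strand) and Tspan4 (chr7:141476260-141476379, plus strand, at 1 of its 2 starts) have 1 each.
Ciart: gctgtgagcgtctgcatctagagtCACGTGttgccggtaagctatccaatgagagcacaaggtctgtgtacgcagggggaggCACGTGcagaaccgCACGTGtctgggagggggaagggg
Bhlhe41: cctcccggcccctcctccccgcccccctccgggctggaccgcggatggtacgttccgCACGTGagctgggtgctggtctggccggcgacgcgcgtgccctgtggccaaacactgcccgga
Tef: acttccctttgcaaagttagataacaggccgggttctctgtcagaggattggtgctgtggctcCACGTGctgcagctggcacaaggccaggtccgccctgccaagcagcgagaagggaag
Tspan4: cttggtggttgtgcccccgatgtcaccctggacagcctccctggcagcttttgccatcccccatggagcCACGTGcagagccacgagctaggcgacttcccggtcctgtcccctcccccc

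The first of these E-boxes begins 116 bases before the start in Ciart, 153 in Bhlhe41, 127 in Tef and 51 in Tspan4. The D-box TTATGTAA, the site of DBP, HLF and TEF, occurs in 0.938% of all promoters and in 0.788% of matched tested genes. It occurs in 1 of the 59 matched genes that rose (1.69%) and in 0 of the 114 that fell. It is shown for Per3, the period gene with the largest rise, which has 2 copies (chr4:151044776-151044895, minus strand). The core of the element bound by ROR and REV-ERB proteins, TNGGTCA, occurs in 11% of all promoters and in 11.7% of matched tested genes. It occurs in 12 of the 59 that rose (20.3%), in 19 of the 114 that fell (16.7%) and in 1 of the 5 matched activators. It is shown for Arntl, the gene those proteins are best known to act on, whose promoter holds 2 cores close together (chr7:113207215-113207334, plus strand). Capitals mark the D-boxes and the cores.
Per3: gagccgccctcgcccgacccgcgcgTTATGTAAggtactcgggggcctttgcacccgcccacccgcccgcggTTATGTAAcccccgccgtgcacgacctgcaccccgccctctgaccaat
Arntl: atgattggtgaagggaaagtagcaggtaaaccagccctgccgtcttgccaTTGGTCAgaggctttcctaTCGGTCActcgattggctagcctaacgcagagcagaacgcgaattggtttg
A match describes these letters in this window and was not tested as a site in these lungs.

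Among the genes named by rule, those of the output factors DBP and HLF rose most. Dbp (chr7:45705100-45710203), which encodes the D-box activator DBP, was read at 13.8, 16.0 and 14.3 CPM in WT and at 209, 149 and 183 CPM in KO. Every KO lung was far above every WT lung, a 12.3-fold rise (log2 fold change 3.62 ± 0.14, SE, adjusted p = 8.29e-05). Its relative Hlf lay at 14.6, 17.4 and 13.3 CPM in WT and 56.8, 55.3 and 44.8 CPM in KO (1.79 ± 0.12, adjusted p = 0.000573). Tef, the third of the family, lay at 175, 172 and 200.2 CPM in WT and 411, 469 and 355 CPM in KO (1.17 ± 0.11, adjusted p = 0.00195). For all 3 the groups were well separated, with KO levels more spread in CPM than WT levels.

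The activators moved the other way. Arntl (chr7:113178471-113314126), the gene for BMAL1, held 36.4, 33.4 and 39.7 CPM in WT and 4.58, 6.63 and 7.21 CPM in KO (−2.58 ± 0.16, adjusted p = 0.000573). Npas2 (chr1:39193702-39363240), a partner of BMAL1, held 16.9, 15.3 and 14.6 CPM in WT and 1.95, 2.80 and 2.33 CPM in KO (−2.73 ± 0.14, adjusted p = 8.29e-05). Clock, the other partner, also fell: 101, 120.3 and 129 CPM in WT against 71.9, 78.1 and 76.7 CPM in KO (−0.62 ± 0.09, adjusted p = 0.0125). Groups did not overlap for any of the 3, and KO lungs kept a measurable level of each. Rora, whose product activates Arntl, did not pass the test (0.11 ± 0.08) and its groups overlapped. The call of Clock was lost without WT 3 or without KO 1.

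Among the repressors, Per3 was the clearest, at 23.1, 24.1 and 23.8 CPM in WT and 82.5, 86.3 and 66.1 CPM in KO (1.73 ± 0.10, adjusted p = 0.000104). Nr1d2, which encodes REV-ERB beta, a repressor of Arntl, held 61.8, 65.7 and 75.4 CPM in WT and 179, 161 and 154 CPM in KO (1.28 ± 0.09, adjusted p = 0.000385). Bhlhe41, whose product DEC2 competes for E-boxes, held 13.1, 15.3 and 12 CPM in WT and 43.6, 32.6 and 45.3 CPM in KO (1.59 ± 0.14, adjusted p = 0.00278). In these 3 genes each KO lung exceeded each WT lung by a wide margin. Ciart, for the BMAL1 inhibitor CHRONO, rose from 4.15, 2.84 and 3.80 CPM to 11.8, 15.3 and 7.59 CPM (1.69 ± 0.27, adjusted p = 0.0395), and this call was lost in 4 of the 6 fits that leave out 1 library, those without any one WT library or without KO 1. Nfil3, for a factor that represses through D-boxes, ran against the list's median, at 13.2, 10.1 and 14.9 CPM in WT and 5.41, 7.84 and 3.66 CPM in KO, without passing (−1.18 ± 0.29, adjusted p = 0.121).

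Several core repressors lay higher in every KO lung without passing the test. Per1 held 85.5, 60.2 and 82.4 CPM in WT and 169.7, 235 and 113 CPM in KO (1.18 ± 0.32, adjusted p = 0.179). Per2 held 20.8, 18.8 and 22.8 CPM in WT and 62.7, 84.3 and 41.5 CPM in KO (1.6 ± 0.28, adjusted p = 0.0816). The same order of KO lungs, KO 2 highest and KO 3 lowest, held for both period genes. Nr1d1, for REV-ERB alpha, held 134, 142 and 123 CPM in WT and 322, 199 and 333 CPM in KO (1.10 ± 0.21, adjusted p = 0.0813). Bhlhe40, for DEC1, held 43.6, 43.3 and 47.5 CPM in WT and 94.2, 65.1 and 101 CPM in KO (0.96 ± 0.16, adjusted p = 0.0531). In these last genes KO 2 was instead the lowest KO lung, as it was for Dbp and Bhlhe41. Cry2, a cryptochrome, stood at 0.36 ± 0.08 (adjusted p = 0.0586) with no overlap. Cry1, the other cryptochrome, overlapped, with 18.7, 17.8 and 18.6 CPM in WT and 17.4, 27.8 and 12.2 CPM in KO (0.05 ± 0.30). Its KO lungs thus spanned a wider range than its WT lungs, again with KO 2 at the top and KO 3 at the bottom. Tsc22d3, a gene switched on by glucocorticoids and listed as a rhythmic output, showed that order too, at 221, 349 and 109 CPM in KO against 211, 128 and 186 CPM in WT (0.37 ± 0.50).

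**Figure D2:**
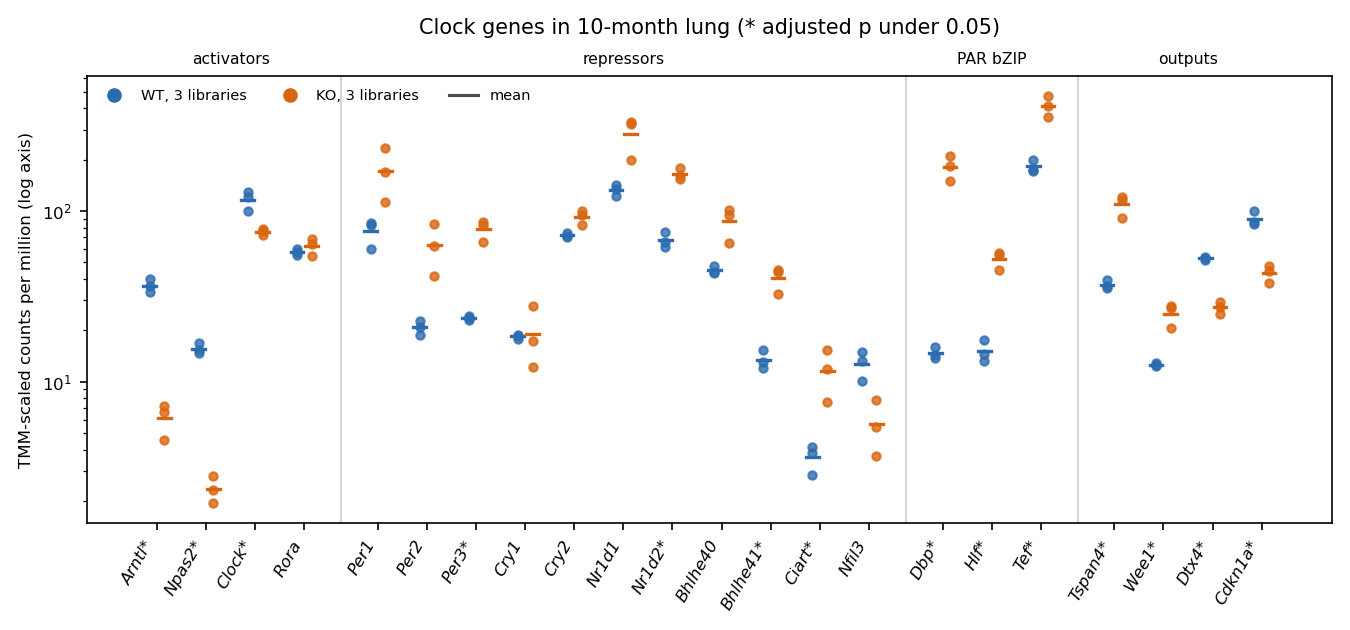
Level (CPM, log axis) of clock genes in each of the 6 lungs at 10 months, with WT and KO libraries as separate points and bars at the group means. Dbp, Hlf, Tef, Per3, Nr1d2 and Bhlhe41 are higher, and Arntl and Npas2 lower, in every KO lung, while Cry1 overlaps.

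Of 14 genes listed as rhythmic outputs, 2 rose and 2 fell (median 0.29). Tspan4, for a tetraspanin of cell membranes, held 36.5, 39.5 and 35.2 CPM in WT and 116, 122 and 91.1 CPM in KO (1.56 ± 0.11, adjusted p = 0.000573). Wee1, for the kinase that holds back entry into mitosis, held 12.5, 12.4 and 12.9 CPM in WT and 26.9, 27.6 and 20.6 CPM in KO (1.00 ± 0.12, adjusted p = 0.00415). Both rises were clear of the spread in either group. Cdkn1a, for the cell cycle inhibitor p21, fell from 100.2, 83.4 and 86.6 CPM to 44.3, 47.7 and 37.8 CPM (−1.06 ± 0.10, adjusted p = 0.00226). Dtx4, for a ubiquitin ligase of the Deltex family, fell from 53.8, 51.9 and 53.2 CPM to 27.4, 24.9 and 29.4 CPM (−0.96 ± 0.07, adjusted p = 0.000573). Cdkn1a is also the 1 called gene of the 12 p53 targets and of the 16 glucocorticoid response genes listed. Mitosis genes themselves were not called (0 of 20, median −0.20).

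Heat shock chaperone genes made up the other large group of changes. Of 24 heat shock genes, all tested, 13 fell and 0 rose, 23 were below 0 and the median was −0.53. In 17 of the 24 all WT lungs lay above all KO lungs, against 12.5% of all genes tested. Hsph1 (chr5:149616843-149636498), which encodes HSP110, a nucleotide exchange factor for HSP70, changed most: 98.1, 117 and 94.8 CPM in WT against 32.2, 28.6 and 33.8 CPM in KO (−1.71 ± 0.10, adjusted p = 0.000104). Every KO lung held well under every WT lung. The count was 11 without WT 3, between 10 and 13 over the 6 fits that leave out 1 library, 14 without WT 1 and KO 2 together, and 6 in a fit over all 23 libraries.

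A heat shock element was searched as GAANNTTCNNGAA on both strands; the other strand reads TTCNNGAANNTTC. It occurs in 0.603% of all promoters and in 0.554% of matched tested genes. It occurs in 0 of the 59 matched genes that rose and in 4 of the 114 that fell (3.51%). The 4 are Hsph1, Chordc1, Hspd1 and Hspe1. Of 19 matched genes of the heat shock list these 4 have it (21.1%). The stretches of Hsph1 (chr5:149636287-149636316, minus strand, past the start), Hspe1 (chr1:55088018-55088137, plus strand) and Chordc1 (chr9:18292177-18292286, plus strand) are printed because they carry 1, 2 and 3 copies, those of the last 2 overlapping. Capitals mark the elements.
Hsph1: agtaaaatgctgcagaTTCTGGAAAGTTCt
Hspe1: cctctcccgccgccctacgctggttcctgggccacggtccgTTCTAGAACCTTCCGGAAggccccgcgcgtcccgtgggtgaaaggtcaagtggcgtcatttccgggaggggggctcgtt
Chordc1: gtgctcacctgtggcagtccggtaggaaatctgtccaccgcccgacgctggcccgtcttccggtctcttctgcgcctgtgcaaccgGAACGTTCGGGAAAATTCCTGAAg
Hspe1 (chr1:55088148-55091317) and Hspd1 (chr1:55077833-55088243) overlap, and the stretch printed for Hspe1 lies within the span of Hspd1. Whether the element counted for Hspd1 is the same one was not tested.

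By role, the constitutive HSP70 and HSP90 proteins were among those whose genes fell. Hspa8, for the constitutive HSP70, held 1663, 1465 and 1407 CPM in WT and 911, 922 and 795 CPM in KO (−0.79 ± 0.09, adjusted p = 0.00415). Hsp90aa1 held 670.3, 878 and 820.1 CPM in WT and 465, 425 and 409 CPM in KO (−0.87 ± 0.10, adjusted p = 0.00517). Hsp90ab1, its constitutive counterpart, held 1447, 1703 and 1575 CPM in WT and 1143, 867 and 956 CPM in KO (−0.67 ± 0.11, adjusted p = 0.0234). No KO lung reached the lowest WT lung in any of these 3. Genes of HSP90 co-chaperones fell too. Stip1, for the adaptor HOP between HSP70 and HSP90, held 119, 131 and 113 CPM in WT and 68.1, 67.4 and 72.1 CPM in KO (−0.81 ± 0.07, adjusted p = 0.00106). The activators of the HSP90 ATPase Ahsa1 (−0.49 ± 0.07) and Ahsa2 (−0.70 ± 0.07), the immunophilin Fkbp4 (−0.55 ± 0.07) and Chordc1 (−0.63 ± 0.08), an HSP90 partner, all fell without overlap. So did Hspa4l (−0.82 ± 0.08), a relative of Hsph1, and the J-domain gene Dnaja1 (−0.63 ± 0.08), which feeds clients to HSP70. The call of Hsp90ab1 did not survive the removal of WT 2, of WT 3 or of KO 3, and that of Ahsa1 the removal of KO 1 or KO 3.

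The mitochondrial pair of chaperonin genes also fell. Hspd1, for HSP60, held 139, 142 and 159.6 CPM in WT and 106, 103 and 100.1 CPM in KO (−0.51 ± 0.07, adjusted p = 0.00902). Hspe1, for its lid HSP10, held 47.0, 55.4 and 48.2 CPM in WT and 38.4, 37.5 and 34.5 CPM in KO (−0.45 ± 0.08, adjusted p = 0.0325). The groups did not overlap for either, but the call of Hspe1 was lost in every fit that leaves out 1 library. The 8 subunit genes of the cytosolic chaperonin TRiC were all below 0 with a median of −0.16. In 7 of them all WT lay above all KO lungs, against 12.5% of all genes tested. By edgeR 0 were called (Cct3 was −0.25 ± 0.06, adjusted p = 0.104) and by DESeq2 1.

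The stress-inducible HSP70 genes were not called. Hspa1a held 22.1, 11 and 12.1 CPM in WT and 27.3, 11.4 and 7.56 CPM in KO (0.04 ± 0.61), and Hspa1b held 29.4, 19.4 and 16.0 CPM in WT and 35.1, 11.7 and 7.42 CPM in KO. In both genes WT 1 and KO 1 were the highest of their groups and the groups overlapped. These near-identical neighbours may share reads, so the values of each are uncertain. Hspb1, for the small heat shock protein HSP27, lay lower in every KO lung without passing, at 190.3, 309 and 227 CPM in WT and 168, 116 and 104 CPM in KO (−0.90 ± 0.27, adjusted p = 0.195). The gene of the heat shock factor itself, Hsf1, was not called and its groups overlapped (−0.20 ± 0.09).

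**Figure D3:**
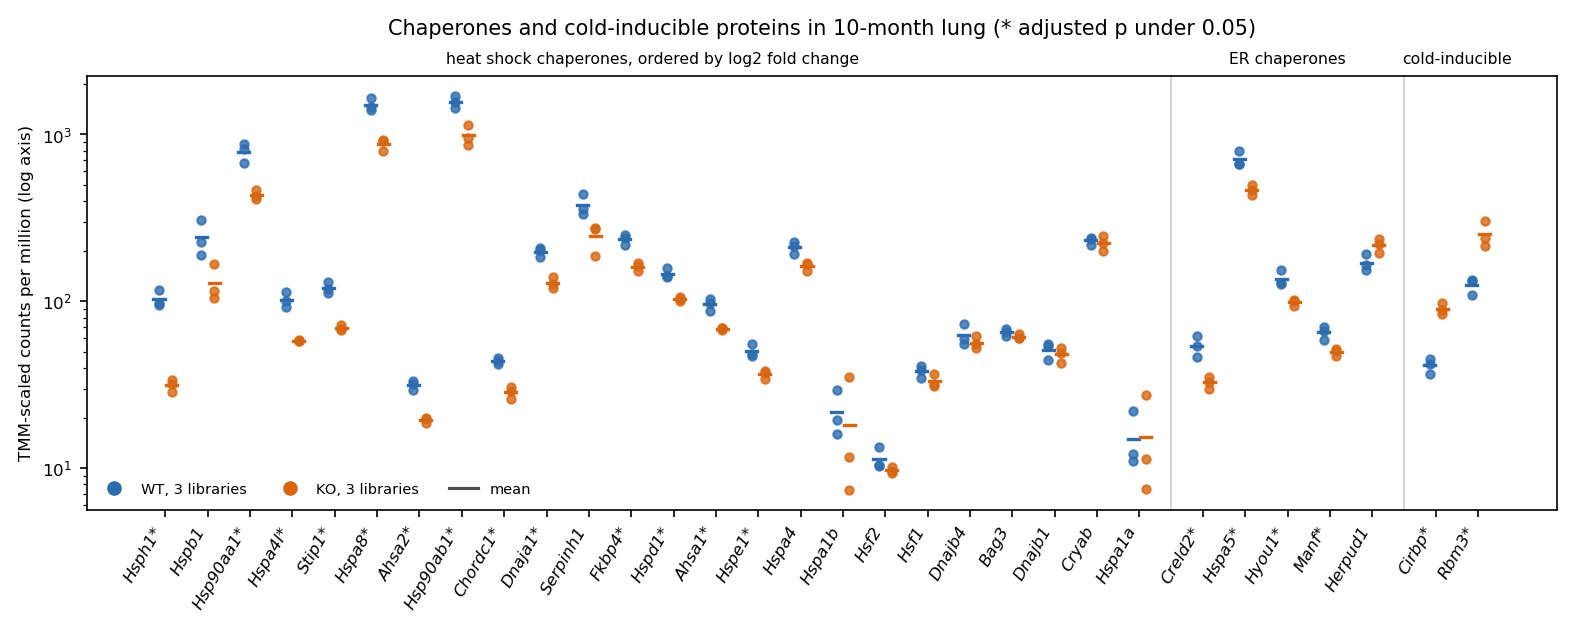
Level (CPM, log axis) of chaperone and cold-inducible genes in each of the 6 lungs at 10 months, with WT and KO libraries as separate points and bars at the group means. Hsph1, Hspa8 and the HSP90 genes are lower and Cirbp and Rbm3 higher in every KO lung, while Hspa1a overlaps.

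Both cold-inducible RNA-binding protein genes listed rose. Cirbp (chr10:80165990-80172786) held 45.4, 36.8 and 42.1 CPM in WT and 84.0, 98.2 and 88.4 CPM in KO (1.12 ± 0.09, adjusted p = 0.000755). Rbm3, its X-linked relative, held 133, 109.6 and 135 CPM in WT and 214, 305 and 241 CPM in KO (1.01 ± 0.14, adjusted p = 0.0237). Each KO lung exceeded each WT lung for both, although the call of Rbm3 was lost without any one WT library and without KO 3.

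In the endoplasmic reticulum, 4 of 17 chaperone and unfolded protein response genes fell and 0 rose (23.5% called, against 1.52% of all genes). The median was −0.39, and all WT lay above all KO lungs in 12 of 17, against 12.5% of all genes tested. Hspa5, for the ER chaperone BiP, held 669, 798 and 669 CPM in WT and 495, 436 and 467 CPM in KO (−0.61 ± 0.09, adjusted p = 0.0125). Creld2 (−0.73 ± 0.11), Hyou1 (−0.47 ± 0.08) and Manf (−0.39 ± 0.08), all induced with BiP under ER stress, fell with it. Herpud1, another gene of that response, was not called and stood at 0.35 on the log2 scale. The list had 1 to 3 called genes over the fits without 1 library, 2 without WT 1 and KO 2, and 10 in DESeq2. It had 0 with the replicate number as a block and 0 in the fit over all 23 libraries by edgeR. Hspa5 lost its call without KO 3, Creld2 without WT 1 or KO 1, Manf in 5 of 6 such fits (all but that without WT 3) and Hyou1 in every one.

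Genes for receptors of vasoactive hormones and amines were called lower in 4 of 14 tested cases and higher in 0. These calls were 28.6% of the list, against 1.52% of all genes tested, while the list's median was 0.03. The list had 2 to 5 called genes over the fits without 1 library and 2 without WT 1 and KO 2. It had 2 with the replicate number as a block and 0 in the fit over all 23 libraries. Npr3 (chr15:11839896-11907837), which clears natriuretic peptides, held 162, 206 and 143 CPM in WT and 67.5, 70.1 and 71.8 CPM in KO (−1.29 ± 0.13, adjusted p = 0.0041). Adra1a, the alpha-1A adrenergic receptor, held 31.1, 28.5 and 27.9 CPM in WT and 15.9, 15.5 and 18.7 CPM in KO (−0.81 ± 0.09, adjusted p = 0.00411). Avpr1a, a vasopressin receptor, held 4.66, 3.11 and 3.30 CPM in WT and 1.27, 0.909 and 1.71 CPM in KO (−1.50 ± 0.27, adjusted p = 0.0307). For all 3 the KO lungs lay together below the WT lungs, though the low-count Avpr1a lost its call without any one WT library and without KO 1. Without WT 1 and KO 2 together, neither Npr3 nor Avpr1a was called. Vipr2, a receptor for vasoactive intestinal peptide, fell by 0.51 ± 0.07 on the log2 scale, a call lost when WT 1, WT 2 or KO 1 was left out. Of the remaining 10 tested members, 8 stood above 0.

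Small GTPase genes moved in both directions, with 1 of 12 Ras-like genes higher and 1 lower. Rasd2, for the striatal Ras relative RHES, held 3.71, 4.71 and 3.94 CPM in WT and 13, 10.2 and 10.1 CPM in KO (1.43 ± 0.14, adjusted p = 0.00258). Rasl11a held 25.6, 23.4 and 26.3 CPM in WT and 9.96, 12.7 and 7.94 CPM in KO (−1.30 ± 0.16, adjusted p = 0.00794), a call lost without WT 3 and without KO 1. Among 26 immediate early genes tested only Nr4a3, an orphan nuclear receptor, was called, at 9.18, 6.65 and 12.3 CPM in WT and 3.00, 2.12 and 3.10 CPM in KO (−1.77 ± 0.25, adjusted p = 0.0161; not called without WT 1, KO 1 or KO 3). It moved against its list, of which 19 stood above 0 (median 0.10).

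In metabolism, cholesterol synthesis and uptake genes were above 0 in 24 of 24 tested cases, with a median of 0.25. In 12 of them all KO lungs lay above all WT lungs, against 12.2% of all genes tested. Only Lss, the lanosterol synthase, was called: 38.0, 36.5 and 32.1 CPM in WT against 48.0, 51.0 and 50.6 CPM in KO (0.49 ± 0.08, adjusted p = 0.0179). Its call was lost without WT 2, KO 1 or KO 3. The list's count of calls was 7 without WT 1 and KO 2, 1 without WT 3, and 0 to 7 over the fits without 1 library (7 without KO 2, 2 without WT 1). Among 10 PPAR targets 9 stood below 0 (median −0.48), and Acot1, for an acyl-CoA thioesterase, fell from 85.3, 78.9 and 75.5 CPM to 43.3, 40.3 and 35.1 CPM (−1.01 ± 0.09, adjusted p = 0.000862). Heart muscle and adipocyte levels, given above, were highest in WT 1 and KO 2, and their part in this list was not tested. Like every called gene, Acot1 had no overlap between the groups, which is no further support for it. Of 13 hypoxia genes, Pfkfb3, a driver of glycolysis, rose (0.77 ± 0.13, adjusted p = 0.0343) and P4ha1, a collagen prolyl hydroxylase, fell (−0.57 ± 0.10, adjusted p = 0.0299). The former lost its call without any one WT library or KO 1, the latter without WT 2, WT 3 or KO 3. Respiratory chain genes (0 of 26 called by edgeR and by DESeq2, median 0.02) and retinoid receptors and enzymes (0 of 17 called by edgeR and 1 by DESeq2, median −0.03) gave nearly centred lists.

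Lists of lung cell type markers held few called genes. Ciliated cell genes were below 0 in 20 of 20 tested cases with a median of −0.28. In 14 of the 20 all WT lay above all KO lungs, against 12.5% of all genes tested. Called lower were 2 of the 20 (10%, against 1.52% of all genes). The list had 0 to 2 called genes over the fits without 1 library and 4 in DESeq2. It had 0 with the replicate number as a block and 0 in the fit over all 23 libraries. Drc1, of the dynein regulatory complex, fell from 33.0, 32.4 and 35.4 CPM to 23.9, 22.4 and 24.1 CPM (−0.52 on the log2 scale, adjusted p = 0.00902). The outer arm dynein gene Dnah5 fell from 78.6, 78.2 and 79.4 CPM to 56.0, 60.9 and 63.4 CPM (−0.39, adjusted p = 0.0224). Foxj1, the master factor of motile cilia, was not called (−0.27 ± 0.08, adjusted p = 0.134). The mean ciliated level was 5.12, 5.10 and 5.20 in WT and 4.84, 4.89 and 4.95 in KO. These levels did not overlap. Drc1 was not called without KO 1, nor Dnah5 without KO 1 or any one WT library.

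Smooth muscle genes were below 0 in 13 of 14 cases (median −0.25) with 0 called by edgeR and 5 by DESeq2; without WT 2 edgeR called 4. Their level was 6.32, 5.96 and 6.26 in WT and 5.85, 5.99 and 5.93 in KO, so that WT 2 lay within the KO range. Cnn1, for calponin, held 59.7, 45.5 and 62.8 CPM in WT and 36.2, 40.4 and 38.8 CPM in KO (−0.54 ± 0.12, adjusted p = 0.0712). Club cell genes followed the axis of WT 1 and KO 2 (levels 8.71, 6.76 and 7.30 in WT, 6.55, 8.30 and 7.20 in KO), and their 1 called gene, the carbonyl reductase gene Cbr2, went against the list's median of −0.28. It held 3804, 3493 and 3435 CPM in WT and 4687, 5041 and 4766 CPM in KO (0.43 ± 0.08, adjusted p = 0.0339), a call that held only without WT 1 among the 6 fits that leave out 1 library. MHC class II genes stood above 0 in 9 of 9 cases (median 0.22), but the WT levels of 6.82, 7.07 and 6.42 and the KO levels of 7.25, 6.57 and 7.16 overlapped, and 0 were called by edgeR (1 without KO 2) or DESeq2. Type 2 and type 1 cell, endothelial and alveolar macrophage lists had 0 called genes of 10, 9, 14 and 15 by edgeR; DESeq2 called 0, 1, 0 and 0.

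Elastic fibre genes were called for 1 of 14, Fbn1, for fibrillin of microfibrils, at 88.8, 97.9 and 90.7 CPM in WT and 64.2, 60.3 and 74.6 CPM in KO (−0.48 ± 0.08, adjusted p = 0.0305), a call that held only in the fit without KO 3 among the 6 that leave out 1 library. Eln, for elastin, had the largest difference of the list without passing, at 216, 226 and 404 CPM in WT and 91.3, 83.5 and 110.0 CPM in KO (−1.57 ± 0.30, adjusted p = 0.102). WT 3 was the highest library for Eln, the same library that held the fetal genes named above. In E19.5 lungs Eln lay at 7214.2 CPM of total counts or more. Whether the high Eln of WT 3 is linked to those genes was not tested. The other 2 WT lungs were still above every KO lung, and without WT 3 Eln was called (−1.22 ± 0.11, adjusted p = 0.0171).

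**Figure D4:**
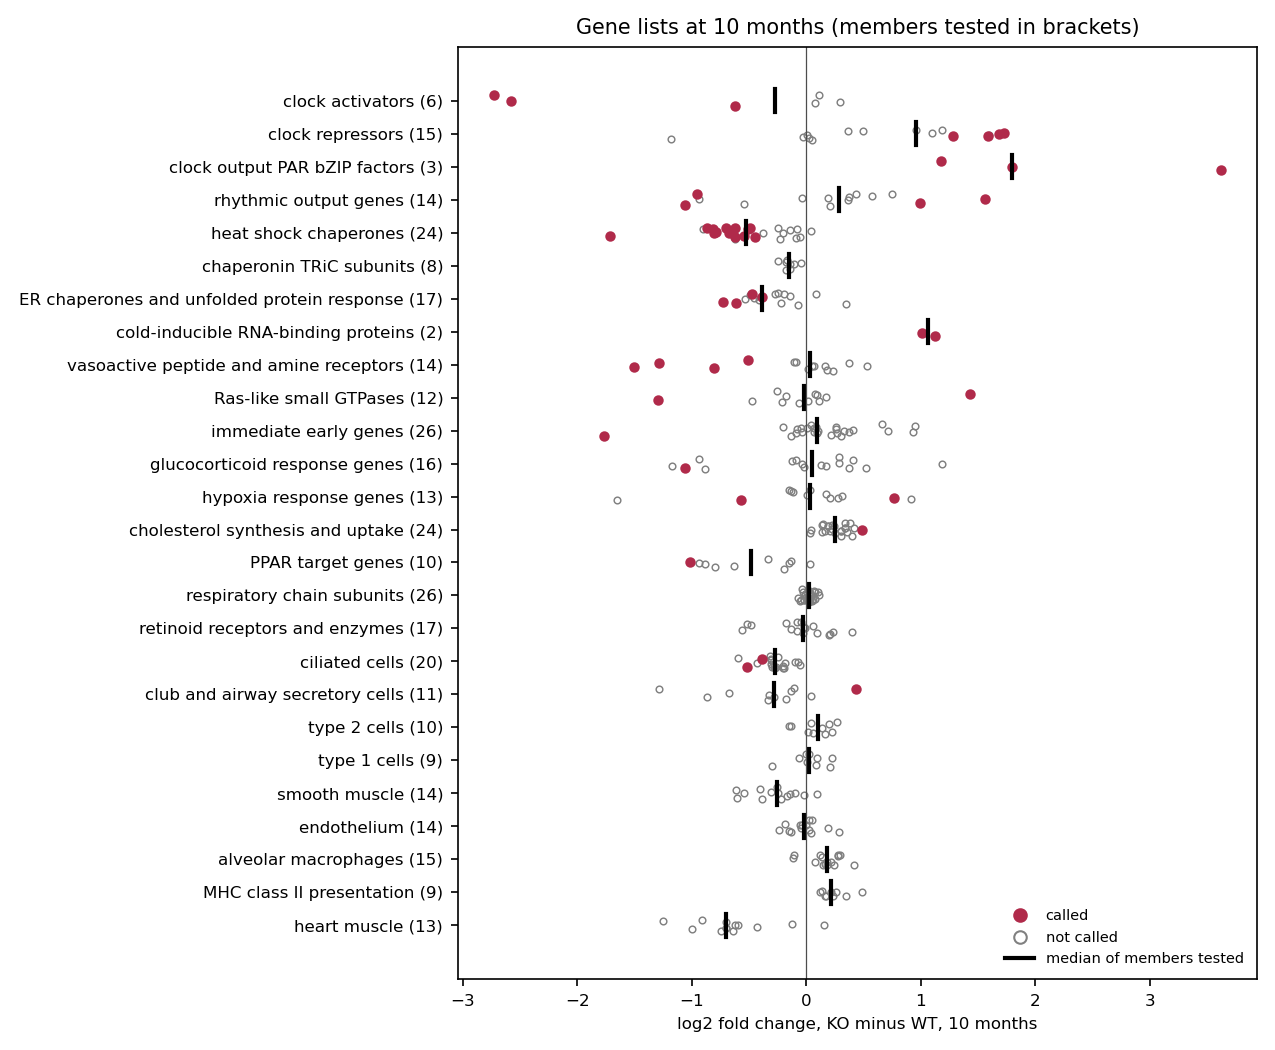
Log2 fold change (KO minus WT) at 10 months of every tested member of the main gene lists (points, horizontal axis), by list, with called genes in colour and the list median marked. Of the heat shock genes 23 of 24 and of the ciliated cell genes 20 of 20 lie to the left of 0, and all 24 cholesterol genes lie to the right.

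The remaining genes named by size or by level were of mixed function. Among the rises were Mthfd1l, a mitochondrial folate enzyme gene (1.08, from 6.25, 5.38 and 5.88 CPM to 11.3, 16.0 and 9.75 CPM, adjusted p = 0.0269), and Palm3, a paralemmin gene (1.18 ± 0.22, adjusted p = 0.0359). Among the more abundant were Slc6a6, the taurine transporter gene (241, 233 and 221 CPM against 326, 362 and 317 CPM, 0.53 ± 0.07), and Zyx, for zyxin of focal adhesions (0.37 ± 0.07). Among the falls were Fam124b (−2.14 ± 0.34, adjusted p = 0.0492), Tmem171 (−1.53 ± 0.21), the basic helix-loop-helix gene Msc (−1.27 ± 0.25) and the collagen receptor gene Itga10 (−1.19 ± 0.20). Leo1, a subunit of the PAF1 complex of transcription elongation, fell from 25.3, 23.2 and 26.3 CPM to 10.4, 9.77 and 13 CPM (−1.17 ± 0.12, adjusted p = 0.00241). Abundant genes that fell also included Thbd, for thrombomodulin of the endothelial surface (1198, 1094 and 1089 CPM against 911, 887 and 839 CPM, −0.36, adjusted p = 0.0469), and Pdgfra, a fibroblast receptor gene (417, 393 and 455 CPM against 295, 306 and 329.7 CPM, −0.44, adjusted p = 0.026). Groups did not overlap for any of them, which held for all 233 called genes and which the rule for the largest changes required. Palm3, Msc and Thbd lost their calls in every fit without 1 library. Among these fits Zyx kept its call only without WT 1, and Itga10 only without KO 2. Mthfd1l, Fam124b and Pdgfra lost theirs in 4 of 6 (each of them without WT 1, WT 3 and KO 1), and Tmem171 without WT 3.

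The 10-month effect was then set against the other ages, in 1 fit of 4 groups for each. The 10-month values enter both the list of called genes and these fits, while the libraries of the other age are separate. One library went against its label there: KO 7 of the 18-month non-tumour lungs, labelled male, held 889.1 CPM of total counts of Xist and 0 of Ddx3y, a Y-linked gene, where the other adult lungs held at most 5.8 CPM of Xist. Of the 233 called genes, 216 (92.7%) had the same sign at 18 months, against 64.3% of all genes tested. Without KO 7 the count was 222 (95.3%), against 66.6% of all genes. At E19.5 it was 141 (60.5%), against 51.3%. The median of the genes that rose went from 0.54 at 10 months to 0.33 at 18 months (0.29 without KO 7) and 0.04 at E19.5. That of the genes that fell went from −0.52 to −0.28 (−0.34 without KO 7) and −0.01. Genes chosen for their size at 10 months were picked on the 10-month values, so these medians are a description.

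At 18 months Dbp stood at 3.06 ± 0.23 and Arntl at −2.55 ± 0.21, and the called repressors had a median of 1.74 against 1.64 at 10 months. The 13 called heat shock genes had a median of −0.67 at 10 months and −0.24 at 18 months, and the cold-inducible pair 1.06 and 0.42. Hsph1 stood at −0.38 ± 0.20 at 18 months (−0.49 ± 0.20 without KO 7), a difference of 1.33 ± 0.31 between the ages. No such difference passed the test of the interaction: 0 of 15653 genes were called by edgeR (0.00%), with 453 at an unadjusted p under 0.05, and 1 (0.00514%) by DESeq2; without KO 7 it was 0 of 15610, with 474. Whether the fall of the chaperones is smaller at 18 months was therefore not detectable in these libraries. Against E19.5, the 10-month effect was different in 25 of 15994 genes (0.156%), of which Dbp (3.53 on the log2 scale, adjusted p = 3.44e-06) and Arntl (−2.77, adjusted p = 8.4e-06) were among the largest.

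**Figure D5:**
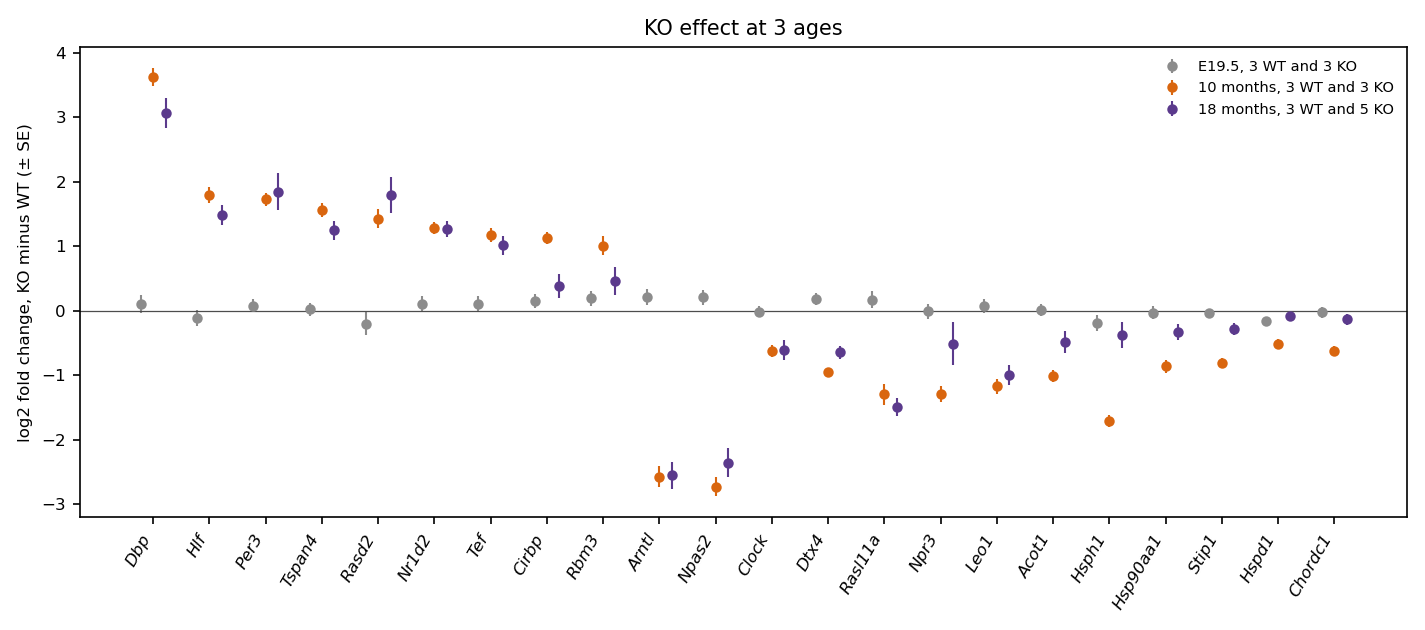
Log2 fold change (KO minus WT) at E19.5, 10 months and 18 months of 22 genes called at 10 months (clock, cold-inducible, chaperone, receptor and other genes), with bars of 1 SE. Dbp stands at 3.62 at 10 months and 3.06 at 18 months, Hsph1 at −1.71 and −0.38, and most of the E19.5 values lie near 0.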

How the data were processed

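Bulk lung RNA of 6 mice, from a series of 23 libraries, makes the main comparison. The authors deposited expected counts for each gene, estimated with RSEM, and an FPKM table, which scales them by gene length and library depth. Trimmomatic 0.36, STAR 2.5.2b, RSEM 1.3.0 and the build mm10 are named in the submitters' processing notes. RSEM shares reads among near-identical copies, so genes such as Hspa1a and Hspa1b are uncertain.

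Expected counts were rounded to whole numbers and tested with edgeR 4.0.16 (R 4.3.3): TMM scaling, filterByExpr by group, robust quasi-likelihood F test without a replicate block. P-values were adjusted by the Benjamini-Hochberg method over every tested gene, and called genes are those with an adjusted value under 0.05. All adjusted p-values are from this test unless DESeq2 is named. SE is the absolute log2 fold change over the square root of F. Differences of the effect between ages were tested as an interaction in fits of 14 (18 months) and 12 (E19.5) libraries. The procedure was tested on simulated data. Alternatives were RLE scaling, DESeq2 1.42.0, no filter, the replicate block, leaving out each library, 1 fit of all 23 libraries, and limma 3.58.1 on log2(FPKM + 1) or log2(FPKM + 0.1).

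The 52 gene lists, the comparison and the rule for named genes were chosen with earlier results of these data known. The rule names Rarres1, the 12 called genes with the largest rise and the 12 with the largest fall (at least 2 CPM in the higher group, no overlap), the 6 most abundant called genes of each direction, and, per list described, the 4 members of smallest p and all called ones; other names were chosen after their values were seen. Some genes that fit the rule are not reported here. A list's level is the mean of log2(CPM + 1). Figures were made in Python 3.11.15 and matplotlib 3.10.9. Promoters are RefSeq's, GRCm38.p6. Replicates differed by more than counting error, with chi-square per degree of freedom of 12.9 to 42 between pairs.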

Additional observations from a re-analysis of the deposited data

Results flagged for a closer look

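For 19 of the genes named, the KO effect at 10 months differed from that at E19.5 by edgeR's test of the interaction at an adjusted p under 0.05. Values are the log2 effect at 10 months minus that at E19.5. Among clock genes and their outputs the difference was 3.53 for Dbp, 1.92 for Hlf, 1.66 for Per3, 1.55 for Tspan4, 1.19 for Nr1d2, 1.10 for Wee1, 1.08 for Tef, −2.93 for Npas2, −2.77 for Arntl and −1.13 for Dtx4. Among chaperone and cold-inducible genes it was −1.51 for Hsph1, −0.76 for Stip1 and 0.98 for Cirbp. The others were Rasd2 (1.64), Rasl11a (−1.46), Npr3 (−1.27), Leo1 (−1.24), Acot1 (−1.02) and Spon2 (−2.82), which was named after its values were seen and was not called at 10 months alone. At E19.5 the effect on Dbp was 0.10 ± 0.14. The labels give no sex for the embryos, and WT E19.5 replicate 3 held 1302.5 CPM of total counts of Xist; over all genes the number of such differences was 19 to 31 when any one library was left out, against 25 with all.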

How the results depend on the processing

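The count of called genes at 10 months, 233 in edgeR, moved to 586 in DESeq2, 153 in limma on log2(FPKM + 1), 153 with a pseudocount of 0.1, 78 in limma without the filter, and 41 in 1 fit over all 23 libraries (37 shared). Leaving out 1 library gave 66 to 205 calls. It was 232 with RLE scaling, 280 without a filter and 240 without WT 1 and KO 2, an alternative chosen after seeing the data. The share of higher genes was 37.8%. With the replicate number as a block, 63 genes were called (56 shared). Same-numbered libraries deviated from their group means with correlations of −0.428, −0.523 and −0.15. The largest axis of variation, which set WT 1 beside KO 2, enters these correlations. They cannot tell whether the numbers pair the lungs, and no label says so. The difference between 18 and 10 months gave 0 calls in edgeR with RLE scaling, without a filter, with the replicate block and with each library left out (0 to 0), and 1 in DESeq2. That between 10 months and E19.5 gave 25 calls, 107 in DESeq2, 25 with the replicate block and 19 to 31 with 1 library left out. Of the 62 called genes named by the rule, 20 kept their call in every alternative and 31 with every single library left out, and 0 changed sign.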

Other observations

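Of the 233 called genes, 183 lie in none of the fixed lists. The genes in this part were chosen after their values were seen, and their adjusted p-values are from edgeR's test over all genes. For genes first named in this part, whether the call holds with 1 library left out is not given. Further partners of HSP70 and HSP90 fell: St13 (−0.49), Cacybp (−0.42), Ptges3 (−0.37, the co-chaperone p23), Dnaja4 (−0.59) and Dnajb2 (−0.29). Of all 40 genes of the Dnaj family tested, 3 fell and 0 rose, with a median of −0.05 (1.52% of all genes were called in either direction). Hsf4, for a heat shock factor best known from the lens, rose (0.53, adjusted p = 0.0385). Egfr, for the epidermal growth factor receptor, held 27.1, 30.6 and 32.8 CPM in WT and 17.6, 19.1 and 20.5 CPM in KO (−0.66 ± 0.09, adjusted p = 0.0103). Fgf10, a mesenchymal growth factor, held 26.0, 25.7 and 31.1 CPM in WT and 19.7, 17.5 and 18.8 CPM in KO (−0.56, adjusted p = 0.0241). Both were lower in every KO lung, as was every gene called lower. Wnt10b rose (0.76, adjusted p = 0.0138), as did Gli1, a target of hedgehog signalling (0.55, adjusted p = 0.0408).

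Among 275 solute carrier genes tested, 6 rose and 3 fell (3.27% called, against 1.52% of all genes tested). The amino acid transporters Slc7a5 (0.79, adjusted p = 0.0103) and Slc1a5 (0.37, adjusted p = 0.0359) rose and the inositol transporter Slc5a3 fell (−0.88, adjusted p = 0.00415). Of 30 Hnrnp and Srsf genes tested, which encode RNA-binding proteins, 1 rose (Hnrnpdl, 0.51) and 2 fell (Hnrnpc and Srsf10). The share called was 10%, and the median was −0.02. Of 11 dynein heavy chain genes 2 fell (18.2%), Dnah5 and Dnah6.

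Some large differences did not pass the test. Spon2, for a secreted matrix protein, held 43.8, 47.5 and 47.2 CPM in WT and 6.56, 3.45 and 11.3 CPM in KO (−2.70 ± 0.43, adjusted p = 0.0792), with no overlap. Amd1 held 0.0675, 0.0334 and 16.9 CPM in WT and 17.7, 19.2 and 44.1 CPM in KO. Its near-identical copy Amd2 held 84.5, 83.1 and 80.6 CPM in WT and 69.8, 72.3 and 32.6 CPM in KO, so that the split of reads between the 2 is uncertain. Adm, for the vasodilator adrenomedullin, stood at −1.66 ± 0.29 (adjusted p = 0.0521). WT 3 was the highest of the 6 libraries not only for Dlk1, H19 and Meg3 but also for Xist, at 5.84 CPM against at most 0.592 in the others. It held the Y-linked gene Ddx3y at 80.9 CPM of total counts, where the KO lungs of that age held 65.4 to 72.6.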
